A study of Homo sapiens with 12 samples.

Results

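The solute carrier (SLC) genes measured in HK-2 cells exposed to Nnm are described here. An SLC gene was chosen by its platform symbol, which had to start with SLC and a digit, after the SLC16 genes and 8 further genes (SLC7A11, SLC3A2, SLC7A5, SLC6A9, SLC1A5, SLC38A2, SLC30A1 and SLC48A1) were set aside. A gene was also selected on its measured values, since 1 probe set naming it alone had to exceed log2 4 on at least 3 of the 12 arrays. Of 359 SLC genes with such a probe set, 195 passed and 164 stayed under that level, while 12 more were named only together with other genes and were not used. The 195 genes are part of 10966 tested genes, and each is represented by the probe set with its highest mean over the 12 arrays. The filter read the same values as the comparisons. A total of 183 of the 195 exceeded log2 4 on all 12 arrays, and 6 of the other 12 did so on Nnm arrays only (SLC22A23, SLC25A53, SLC35E4, SLC51B, SLC9A2 and SLC9B2), against 0 on control arrays only. Just inside the filter, the third highest value was 4.003 for SLC9A2, 4.08 for SLC7A8, 4.18 for SLC38A5, 4.37 for SLC25A45, 4.40 for SLC9B2 and 4.41 for SLC33A2. Just outside, it was 3.90 for SLC12A1, 3.86 for SLC25A21, 3.83 for SLC29A4, 3.77 for SLC6A19, 3.76 for SLC23A1 and 3.74 for SLC4A1.

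HK-2 cells are immortalized epithelial cells of the human renal proximal tubule. The 4 groups were cells given a high dose of Nnm for 24 h, cells given the control vehicle for 24 h, and the same pair at 48 h, with 3 biological replicates each. All groups shared one culture medium (DMEM mixed with Ham's F12) that held glucose at 5 mM and Glutamax at 2 mM. It was supplemented with insulin and transferrin (5 µg/ml each), selenite (5 ng/ml), hydrocortisone (36 ng/ml), EGF (10 ng/ml), penicillin and streptomycin. The sources used here give no dose, full name or vehicle for Nnm. They also do not say whether replicates came from separate cultures, so p-values measure the spread between these samples.

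Solute carriers are membrane proteins that move small solutes by facilitated diffusion, by exchange or by coupling to an ion gradient. Families are grouped by sequence, and each tends to keep to related substrates: SLC25 proteins cross the inner mitochondrial membrane, SLC35 proteins bring nucleotide sugars into the Golgi and endoplasmic reticulum, and SLC30 and SLC39 proteins move zinc out of and into the cytosol. In the proximal tubule, apical and basolateral carriers of these families take back glucose, amino acids, phosphate and bicarbonate and secrete organic ions.

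Values are log2 expression after GCRMA, so a difference of 1 is a 2-fold difference, and levels of different genes are not compared. Each SE is that of the log2 change, also where the change itself is given as a fold. A gene was called when the Benjamini-Hochberg adjusted p from limma, over all 22829 tested probe sets, was under 0.05; every adjusted p below comes from that fit unless the replicate number is named as a block. On the first principal component of the tested probe sets (57.4% of the variance), scores of control cells ran from -49.6 to -44.2. Those of Nnm replicates 1 and 3 ran from 68.6 to 87.8. The scores of Nnm replicate 2 were -16.1 (24 h) and -19.8 (48 h), and each main count below is therefore also given without those 2 arrays, a step chosen with these values known. Of 18 proximal tubule markers, 8 were measured (CDH16, CDH2, CDH6, DPP4, KRT18, KRT8, PAX8 and PDZK1), and 8 lay under the filter, among them LRP2, CUBN, AQP1 and ANPEP. Of the 8 measured markers, limma called 0 at 24 h (0 at an unadjusted p under 0.05) and CDH2, higher, at 48 h; with the replicate number as a block 1 rose and 1 fell at 24 h and 2 rose at 48 h. Their summed log2 level was 87.6 to 90.6 on control and 84.4 to 92.2 on Nnm arrays at 24 h, and 88.4 to 90.9 against 91.5 to 93.2 at 48 h. The part of this shift in the results was not tested. Markers of distal nephron (1 of 10 measured), podocytes (3 of 7), endothelium (2 of 7), fibroblasts (3 of 7) and leukocytes (0 of 6) held 0 genes called by limma at either time and at most 1 per list at an unadjusted p under 0.05; with the block at most 1 per list was called. The 1 distal nephron marker measured, ATP6V0D2, exceeded log2 4 on 4 arrays, all with Nnm, so its p supports nothing. At 24 h it read 5.66, 2.78 and 7.55 on the Nnm arrays, against a control mean of 2.65. In bulk RNA, fewer cells of a kind and less RNA per cell cannot be told apart.

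At 24 h, 35 of the 195 SLC genes were called (17.9%), against 16.5% of all tested genes. Of these, 18 rose (8.31% of all genes did) and 17 fell (8.21% of all genes). At 48 h, 27 were called (13.8%, against 10.8% of all genes), with 17 that rose (6.55% of all genes) and 10 that fell (4.27%). The 6 SLC genes above log2 4 on Nnm arrays only could be tested only because they were high there, so a call of theirs supports nothing, and 2 of the 17 that rose at 48 h (SLC22A23 and SLC25A53) were among them. Over genes above that level on arrays of both treatments, 35 of 189 SLC genes were called at 24 h (18.5%, against 16.4% of 10802 genes) and 25 at 48 h (13.2%, against 10.7%). The shares of SLC genes called were near those of all genes at both times, and the differences were not tested. Their median log2 change was 0.032 at 24 h and -0.011 at 48 h, beside -0.0047 and 0.023 over all genes, so the group did not shift one way. Single genes ranged from -2.28 to 2.48 at 24 h and from -2.77 to 3.11 at 48 h. Among the called genes, 19 of 35 at 24 h and 16 of 27 at 48 h differed by at least 2-fold. The groups did not overlap for 78 SLC genes at 24 h (45 higher and 33 lower, 40.0%), against 39.6% of all genes, and for 73 at 48 h (39 higher and 34 lower, 37.4%), against 37.6%.

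**Figure D1:**
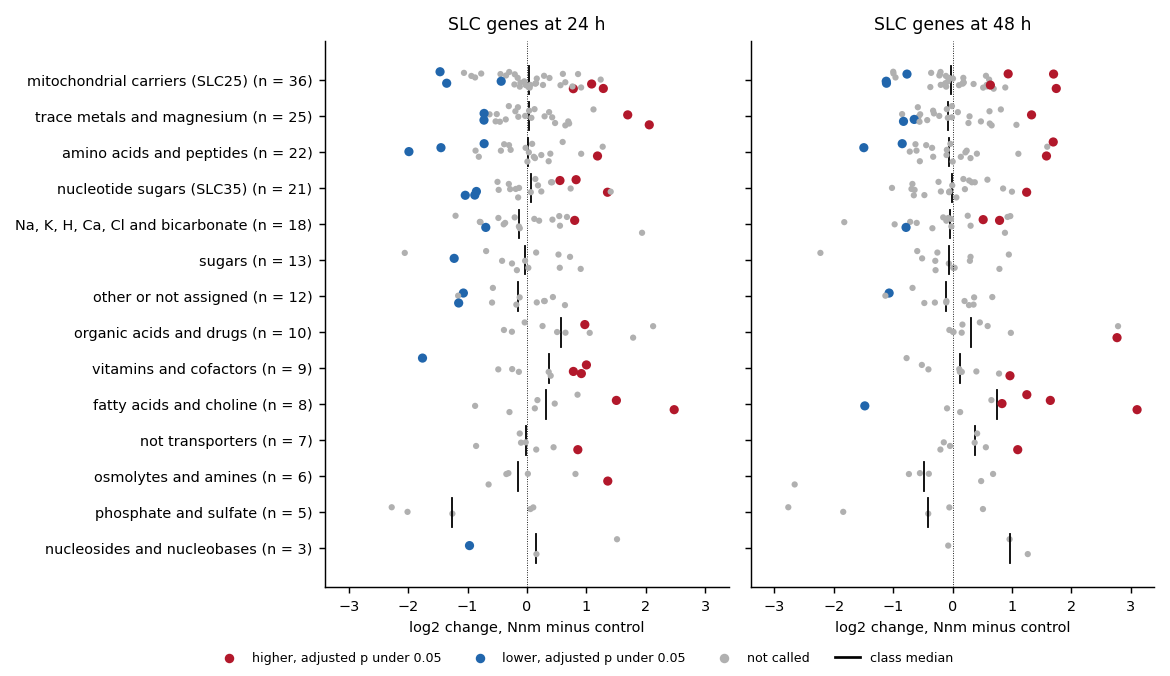
Log2 change with Nnm for each of the 195 SLC genes at 24 h (left) and 48 h (right), 1 point per gene, in rows by substrate class with n genes; red points were called higher, blue points lower and grey points not called, and the vertical bar is the class median. Called genes lie on both sides of 0 in 6 of the 14 classes at 24 h and in 5 at 48 h, while the 8 genes of fatty acids and choline have medians of 0.32 and 0.74.

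The calls depended on single arrays. For the genes that rose, the median change was 1.20, 0.67 and 1.23 in Nnm replicates 1, 2 and 3 at 24 h and 1.39, 0.91 and 1.33 at 48 h. For those that fell, it was -1.18, -0.71 and -1.26 at 24 h and -1.09, -0.66 and -1.17 at 48 h. Nnm replicate 2 was thus the array closest to the control mean for 32 of the 35 genes called at 24 h and 24 of the 27 called at 48 h. Without both Nnm arrays numbered 2, 103 SLC genes were called at 24 h (59 higher and 44 lower) and 96 at 48 h (54 and 42), against 49.9% and 44.8% of all genes, and the calls included all 35 and all 27. Leaving out 1 array of 24 h gave 0, 86 or 1 calls at 24 h without Nnm replicate 1, 2 or 3 and 4, 23 or 0 without control replicate 1, 2 or 3. The calls at 48 h were 5, 70 or 3 without Nnm replicate 1, 2 or 3 of 48 h, 3, 14 or 7 without control replicate 1, 2 or 3 of 48 h, and 45 without Nnm replicate 2 of 24 h. No call at 24 h held whichever array was left out, and 3 did at 48 h, those of SLC44A2, SLC6A20 and SLC25A4. The share of all genes called was not taken for the fits that left out 1 array, so their counts are not a result about SLC genes as a group.

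Same-numbered arrays of different groups deviated together, so the comparisons were also fitted with that number as a block. With the block over all arrays, 62 SLC genes were called at 24 h (33 higher and 29 lower, against 31.5% of all genes) and 53 at 48 h (28 and 25, against 22.9%), again including all 35 and all 27. With a separate block within each time, 27 and 31 were called (11.1% and 10.4% of all genes), and 25 of the 35 and 23 of the 27 were among them. The 10 and 4 calls lost there had an adjusted p of 0.0513 to 0.0777 at 24 h and 0.0559 to 0.0724 at 48 h. These values are given beside each gene below except SLC22A23 (0.0559), which is described without a test. Where a block is named without more, it is the one over all arrays.

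At both times, 14 SLC genes were called in the same direction (7.18%, against 5.34% of all genes). SLC44A2, SLC27A3, SLC40A1, SLC35D1, SLC25A51, SLC7A2, SLC12A2 and SLC7A6OS rose, and SLC6A20, SLC25A11, SLC25A4, SLC15A4, SLC18B1 and SLC4A7 fell. A further 21 were called only at 24 h and 13 only at 48 h, and 0 were called in opposite directions. The comparisons at 24 h and 48 h use different control arrays and different Nnm arrays.

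**Figure D2:**
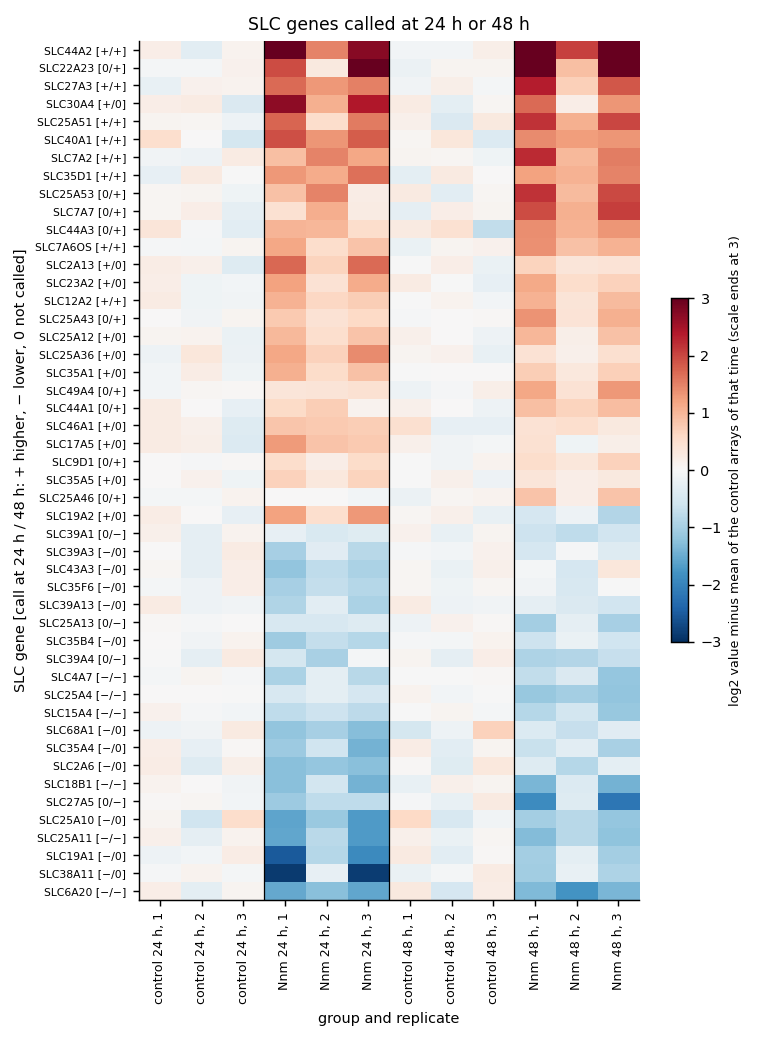
Log2 value minus the mean of the control arrays of the same time, for the 48 SLC genes called at 24 h or 48 h (rows, with the direction called at each time in brackets) on the 12 arrays (columns); the colour scale ends at 3 in either direction. Nnm replicate 2 is paler than Nnm replicates 1 and 3 in most rows, and the lowest and highest rows are SLC6A20 and SLC44A2.

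The promoters of 5 of the genes called at both times, 4 that rose and 1 that fell, are printed to show the letters around their starts. They were picked after the values were seen. They are RefSeq sequences of GRCh38.p14, from 250 bases before to 50 after the annotated start, 5′ to 3′ on the gene's strand. The SLC44A2 promoter is chr19:10602205-10602504 on the plus strand, that of SLC27A3 chr1:153775157-153775456 on the plus strand, that of SLC40A1 chr2:189580737-189581036 on the minus strand, that of SLC25A51 chr9:37904078-37904377 on the minus strand and that of SLC6A20 chr3:45796487-45796786 on the minus strand. Capitals mark matches, on either strand, to the GC box GGGCGG and the E-box CACGTG, a palindrome.
SLC44A2: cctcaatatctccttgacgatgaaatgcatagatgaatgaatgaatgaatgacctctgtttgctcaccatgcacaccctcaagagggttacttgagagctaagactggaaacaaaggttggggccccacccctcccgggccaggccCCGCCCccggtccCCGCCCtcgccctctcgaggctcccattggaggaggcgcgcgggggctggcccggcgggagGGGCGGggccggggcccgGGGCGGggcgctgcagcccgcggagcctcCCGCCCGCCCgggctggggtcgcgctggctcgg
SLC27A3: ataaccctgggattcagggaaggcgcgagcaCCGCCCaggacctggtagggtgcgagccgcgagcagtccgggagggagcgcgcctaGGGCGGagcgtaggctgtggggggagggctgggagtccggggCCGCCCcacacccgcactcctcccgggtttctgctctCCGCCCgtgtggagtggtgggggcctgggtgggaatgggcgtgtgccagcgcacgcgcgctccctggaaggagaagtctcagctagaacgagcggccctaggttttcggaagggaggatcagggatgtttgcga
SLC40A1: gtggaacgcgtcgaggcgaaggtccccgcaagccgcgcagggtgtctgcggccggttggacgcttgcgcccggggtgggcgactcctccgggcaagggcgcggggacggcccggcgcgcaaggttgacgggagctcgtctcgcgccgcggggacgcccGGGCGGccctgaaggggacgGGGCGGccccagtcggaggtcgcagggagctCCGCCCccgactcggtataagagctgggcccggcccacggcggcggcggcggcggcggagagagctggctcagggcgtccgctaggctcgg
SLC25A51: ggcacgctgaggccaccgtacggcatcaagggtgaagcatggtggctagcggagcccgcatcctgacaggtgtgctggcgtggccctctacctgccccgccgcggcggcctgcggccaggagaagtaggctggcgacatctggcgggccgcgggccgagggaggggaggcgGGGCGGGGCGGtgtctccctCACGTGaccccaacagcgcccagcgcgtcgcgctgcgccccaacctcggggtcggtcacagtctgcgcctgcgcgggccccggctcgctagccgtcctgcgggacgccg
SLC6A20: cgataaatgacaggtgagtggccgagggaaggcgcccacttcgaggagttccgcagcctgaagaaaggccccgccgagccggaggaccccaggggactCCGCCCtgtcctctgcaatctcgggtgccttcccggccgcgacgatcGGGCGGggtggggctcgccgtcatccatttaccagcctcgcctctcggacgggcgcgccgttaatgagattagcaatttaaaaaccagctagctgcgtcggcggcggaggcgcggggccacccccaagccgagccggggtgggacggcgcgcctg
These windows hold 6, 4, 3, 2 and 2 matches to GGGCGG in that order, where neighbouring matches may share a letter, and the one CACGTG is in SLC25A51. Their GC content is 69.0%, 68.7%, 77.7%, 74.7% and 68.0%, beside a median of 58.3% over all 27305 promoters of the table. Promoters matched 165 of the 195 SLC genes. A GGGCGG was present in 71.5% of these, in 84.0% of the 25 matched genes called higher, in 61.1% of the 18 called lower and in 44.6% of all promoters, and the median GC content of the 165 was 67.3%. For CACGTG these shares were 12.7%, 16%, 11.1% and 7.43%. The search also took TGACNNNGC, the core of the antioxidant response element, at 17%, 16%, 27.8% and 13.6%. The fourth string, TGATGNAAN, spelled after the CCAAT-enhancer binding protein and ATF composite element, was present in 5.45%, 0.0%, 11.1% and 3.67%. The share over all promoters covers every gene of the promoter table, tested here or not. No share was taken over the 10966 tested genes. The median GC content was 69.0% for the 25 called higher and 65.5% for the 18 called lower. Neither TGACNNNGC nor TGATGNAAN lies in the 5 windows shown.

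**Figure D3:**
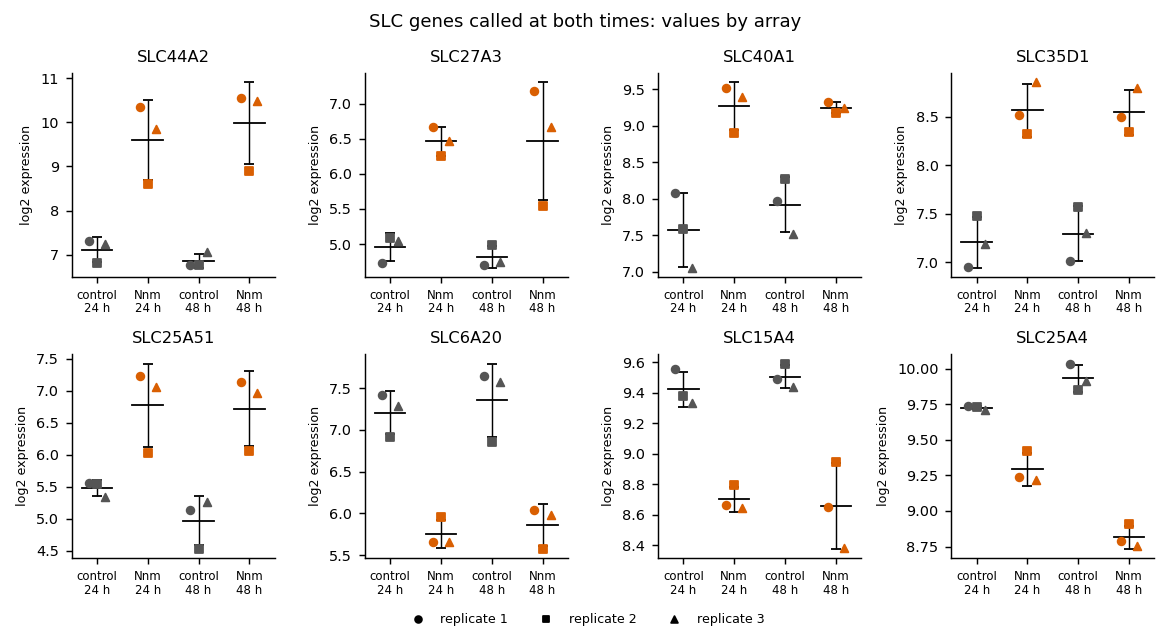
Log2 expression on each array for 8 of the 14 SLC genes called at both times, by group (3 arrays each, marker shape for the replicate number); the bar is the mean and the whiskers 1 SD. In every panel the Nnm and control arrays of a time do not overlap, and SLC44A2 shows the widest separation, from 6.87 to 9.98 at 48 h.

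Carriers of choline and fatty acids held the largest rise. Of the 8 measured, 2 rose and 0 fell at 24 h, and 4 rose and 1 fell at 48 h. SLC44A2, a choline transporter-like protein, read 7.32, 6.81 and 7.23 on the control arrays and 10.36, 8.60 and 9.84 on the Nnm arrays at 24 h. Each Nnm array was above each control array, with replicate 2 the lowest of the Nnm arrays, and the mean rose 5.58-fold, from 7.12 ± 0.28 to 9.60 ± 0.90 (SD, n = 3; adjusted p = 0.0164). At 48 h it read 6.78, 6.77 and 7.05 on the control arrays and 10.54, 8.91 and 10.48 on the Nnm arrays. The rise was 8.62-fold, or 3.11 on the log2 scale (SE 0.49, adjusted p = 0.00919), and again the arrays did not overlap. Both tested probe sets of SLC44A2 were called higher at both times. Its relatives moved less. SLC44A1, which carries choline at the plasma membrane and mitochondria, read 11.22, 11.08 and 10.91 on the control arrays and 11.98, 11.75 and 11.99 on the Nnm arrays at 48 h and rose 1.78-fold (adjusted p = 0.0255), and SLC44A3 rose 2.38-fold at that time (adjusted p = 0.0305). At 24 h both were also higher on average, by 0.47 and 0.85 on the log2 scale, but were not called. With the replicate block SLC44A3 was called at 24 h (adjusted p = 0.0298, 0.0733 with the block within that time). SLC44A1 had 6 tested probe sets. Of these, 5 were higher at 24 h and 3 were called higher by limma, though not the one that represents the gene here. SLC44A5 differed by 0.13 and -0.09, well within its spread.

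The SLC27 proteins take up long-chain fatty acids and activate them to acyl-CoA. SLC27A3 read 4.73, 5.09 and 5.05 on the control arrays and 6.67, 6.25 and 6.47 on the Nnm arrays at 24 h, a 2.84-fold rise (SE 0.34, adjusted p = 0.0229). At 48 h the readings were 4.71, 4.99 and 4.75 on the control arrays and 7.18, 5.54 and 6.68 on the Nnm arrays, a 3.13-fold rise (adjusted p = 0.0193). The arrays did not overlap at either time, although at 48 h replicate 2 was only just above the control arrays. SLC27A5, known for activating bile acids in liver, moved the other way. It read 6.89, 6.71 and 7.19 on the control arrays and 5.05, 6.55 and 4.76 on the Nnm arrays at 48 h and fell by 1.48 on the log2 scale (SE 0.37, adjusted p = 0.0361, 0.0640 with the block within that time), with replicates 1 and 3 far below the control arrays and replicate 2 just below them. SLC27A2 and SLC27A4 were not called at either time.

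Of the 22 carriers of amino acids and peptides, 1 rose and 3 fell at 24 h, and 2 rose and 2 fell at 48 h (4 and 3 with the replicate block). SLC6A20, the sodium-coupled transporter of proline and other imino acids in proximal tubule and gut, read 7.41, 6.92 and 7.28 on the control arrays and 5.66, 5.95 and 5.66 on the Nnm arrays at 24 h. It fell by 1.45 (SE 0.23, adjusted p = 0.0106), to 0.366 times the control level. At 48 h it read 7.65, 6.85 and 7.57 on the control arrays and 6.04, 5.57 and 5.97 on the Nnm arrays and fell by 1.49 (SE 0.23, adjusted p = 0.00893). All 3 Nnm arrays lay below all control arrays at both times, and at 48 h replicate 2 was the lowest of all. Both of its probe sets were called lower at both times. SLC15A4, a lysosomal carrier of histidine and small peptides, fell by 0.72 at 24 h (adjusted p = 0.0185) and by 0.85 at 48 h (adjusted p = 0.0133), with readings of 9.49, 9.59 and 9.44 on the control arrays and 8.65, 8.94 and 8.38 on the Nnm arrays at the later time.

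Of the SLC7 carriers of cationic amino acids, SLC7A2 rose at both times and SLC7A7 at 48 h, while SLC7A1 differed by 0.24 and -0.10 and SLC7A6 by -0.02 and -0.34, not called. SLC7A2, a plasma membrane importer of arginine, lysine and ornithine, read 5.59, 5.55 and 5.93 on the control arrays and 6.60, 7.19 and 6.85 on the Nnm arrays at 24 h, a 2.28-fold rise (adjusted p = 0.0262) in which replicate 2 was the highest Nnm array. SLC7A2 at 48 h read 7.06, 7.04 and 6.85 on the control arrays and 9.22, 7.96 and 8.51 on the Nnm arrays, a 2.99-fold rise (adjusted p = 0.0134). The control level was also higher at 48 h than at 24 h, by 1.29, although that difference was not called (adjusted p = 0.286). SLC7A7, the light chain that exports cationic in exchange for neutral amino acids at the basolateral membrane, rose 3.24-fold at 48 h (adjusted p = 0.0131), with readings of 7.17, 7.65 and 7.52 on the control arrays and 9.40, 8.50 and 9.52 on the Nnm arrays. At 24 h it was 0.60 higher and not called, and the arrays did not overlap at either time.

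SLC38A11, of the family of sodium-coupled neutral amino acid transporters, showed the widest fall of a called gene at 24 h and rested on replicates 1 and 3. It read 9.42, 9.55 and 9.41 on the control arrays and 6.59, 9.22 and 6.60 on the Nnm arrays at 24 h and fell by 1.99 (SE 0.58, adjusted p = 0.0452, 0.0529 with the block within that time). Replicate 2 lay only just below the control arrays; at 48 h the difference was -0.72 and not called. SLC1A4, a transporter of alanine, serine and cysteine, was not called, with readings of 8.65, 7.68 and 7.996 on the control arrays and 10.41, 8.46 and 10.24 on the Nnm arrays at 48 h (adjusted p = 0.0813). Its replicate 2 was above the control array of the same number but within the control range, and with the replicate block it was called at both times (adjusted p = 0.0174 and 0.0115). SLC43A2, a carrier of large neutral amino acids, stood 1.11 higher at 48 h and had an adjusted p of 0.113, 0.0489 with the block over all arrays and 0.107 with the block within that time. SLC38A1, which imports glutamine, differed by 0.09 and -0.04.

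Among 25 carriers of trace metals and magnesium, 2 rose and 2 fell at 24 h, and 1 rose and 2 fell at 48 h. SLC40A1 is ferroportin, the iron exporter of the plasma membrane. At 24 h it read 8.07, 7.59 and 7.05 on the control arrays and 9.52, 8.90 and 9.39 on the Nnm arrays, and it rose 3.24-fold (SE 0.27, adjusted p = 0.0106). After 48 h it read 7.97, 8.27 and 7.52 on the control arrays and 9.32, 9.17 and 9.25 on the Nnm arrays and rose 2.51-fold (SE 0.27, adjusted p = 0.0198). The 3 Nnm arrays of 48 h had an SD of 0.08, replicate 2 included, and lay above all control arrays. Other iron carriers were not called: SLC11A2, the divalent metal importer DMT1, was 1.12 higher at 24 h (adjusted p = 0.0675, 0.0467 with the replicate block, 0.0983 with the block within that time) with 2 of its 4 probe sets of the opposite sign, and SLC39A14, which takes up iron and zinc, differed by 0.37 and 0.09. The mitochondrial iron importers SLC25A37 and SLC25A28, mitoferrin 1 and 2, differed by 0.29 and 0.56 at 24 h and by 0.56 and 0.11 at 48 h.

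Among the zinc carriers, 1 of 6 SLC30 genes rose, at 24 h, and 4 of 11 SLC39 genes fell, 2 at 24 h and 2 others at 48 h. SLC30A4, which moves zinc from the cytosol into vesicles, read 6.12, 6.18 and 5.49 on the control arrays and 8.62, 7.01 and 8.35 on the Nnm arrays at 24 h, a 4.17-fold rise (SE 0.46, adjusted p = 0.0229) with replicate 2 the lowest Nnm array. SLC30A4 at 48 h was 1.08 higher and not called, with replicate 2 within the control range. Of the SLC39 (ZIP) importers, SLC39A13 fell by 0.72 (adjusted p = 0.0391, 0.0594 with the block within that time) and SLC39A3 by 0.72 (adjusted p = 0.0419, 0.0777 with the block within that time) at 24 h, and SLC39A4 by 0.83 (adjusted p = 0.0492) and SLC39A1 by 0.65 (adjusted p = 0.0290) at 48 h. SLC39A4 read 9.40, 9.05 and 9.54 on the control arrays and 8.42, 8.46 and 8.64 on the Nnm arrays at 48 h, with all 3 Nnm arrays close together below the control arrays. SLC39A10 was not called but stood 0.85 lower at 48 h (adjusted p = 0.107), and was called with the replicate block (adjusted p = 0.0227, 0.0586 with the block within that time); SLC39A6 differed by -0.03 and -0.22. Neither the copper importer SLC31A1, which also carries platinum drugs, nor its relative SLC31A2 was called at either time. The differences were 0.47 and 0.27 for SLC31A1 and 0.04 and -0.33 for SLC31A2. With the block, 5 metal carriers rose and 6 fell at 24 h, and 2 rose and 5 fell at 48 h.

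The SLC25 carriers of the inner mitochondrial membrane were the largest class, with 36 genes. At 24 h 3 rose and 3 fell, and at 48 h 4 rose and 3 fell. SLC25A4, an ADP/ATP exchanger, had the smallest adjusted p of any SLC gene at 48 h. It read 9.74, 9.73 and 9.71 on the control arrays and 9.24, 9.42 and 9.21 on the Nnm arrays at 24 h and fell by 0.43 (adjusted p = 0.0317, 0.0607 with the block within that time). At 48 h it read 10.04, 9.85 and 9.91 on the control arrays and 8.79, 8.91 and 8.75 on the Nnm arrays and fell by 1.12 (SE 0.11, adjusted p = 0.00262), to 0.461 times the control level, with replicate 2 beside the other Nnm arrays. Its close relative SLC25A5 differed by -0.05 and -0.08, and the phosphate carrier SLC25A3 was 0.30 and 0.20 lower without being called. SLC25A11, which exchanges 2-oxoglutarate for malate, fell by 1.35 at 24 h (adjusted p = 0.0132), with readings of 9.90, 9.49 and 9.85 on the control arrays and 8.18, 8.95 and 8.05 on the Nnm arrays. SLC25A11 also fell at 48 h, by 1.11 (adjusted p = 0.0220, 0.0566 with the block within that time), and both of its probe sets were called lower at both times. SLC25A10, the dicarboxylate carrier, fell by 1.46 at 24 h (adjusted p = 0.0226, 0.0522 with the block within that time) and was 1.00 lower at 48 h, where it was not called although the arrays did not overlap.

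The aspartate-glutamate exchangers of the malate-aspartate shuttle differed in sign. SLC25A12 rose 1.72-fold at 24 h (adjusted p = 0.0413, 0.0590 with the block within that time), with readings of 8.14, 8.17 and 7.86 on the control arrays and 9.03, 8.56 and 8.92 on the Nnm arrays. SLC25A13 fell by 0.77 at 48 h (adjusted p = 0.0332), with readings of 10.71, 10.99 and 10.90 on the control arrays and 9.84, 10.60 and 9.86 on the Nnm arrays. In both cases replicate 2 was the Nnm array nearest to the controls and the groups did not overlap. At the other time SLC25A12 was 0.69 higher and SLC25A13 0.45 lower, without a call for the probe set that represents each gene. Of the 3 tested probe sets of SLC25A13, however, all were lower at 24 h and 2 were called lower by limma. With the block SLC25A12 was called at 48 h too (adjusted p = 0.0366, 0.0816 with the block within that time).

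SLC25A51, the carrier that brings NAD into mitochondria, rose at both times. It read 5.57, 5.54 and 5.34 on the control arrays and 7.23, 6.02 and 7.05 on the Nnm arrays at 24 h (2.44-fold, adjusted p = 0.0406). After 48 h it read 5.13, 4.53 and 5.26 on the control arrays and 7.14, 6.05 and 6.97 on the Nnm arrays (3.36-fold, adjusted p = 0.0198). The arrays did not overlap, but the other tested probe set of SLC25A51 had the opposite sign at both times and was not called. SLC25A36, a carrier of pyrimidine nucleotides, rose 2.13-fold at 24 h (adjusted p = 0.0168), in 3 of its 4 probe sets. SLC25A43 rose 1.91-fold (adjusted p = 0.0244) and SLC25A46, an outer membrane protein of mitochondrial dynamics, 1.56-fold (adjusted p = 0.0460, 0.0724 with the block within that time, with its other probe set of the opposite sign) at 48 h. SLC25A53 read 3.39, 2.81 and 3.18 on the control arrays and 5.30, 4.08 and 5.10 on the Nnm arrays at 48 h, so control cells lay under the filter level. Against log2 4 in place of the control mean, its Nnm mean was at least 1.77-fold higher, given as a description since the gene passed the filter on Nnm arrays only. It is 1 of the 4 counted as higher at 48 h. With the block, 7 SLC25 genes rose and 7 fell at 24 h, and 6 rose and 5 fell at 48 h.

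Of 21 SLC35 genes, 3 rose and 3 fell at 24 h and 1 rose and 0 fell at 48 h. SLC35D1 carries UDP-glucuronic acid and UDP-N-acetylgalactosamine into the endoplasmic reticulum, where they feed glucuronidation and chondroitin synthesis. It read 6.96, 7.48 and 7.18 on the control arrays and 8.52, 8.32 and 8.85 on the Nnm arrays at 24 h, a 2.56-fold rise with the smallest adjusted p of any SLC gene at that time (0.0103, SE 0.21). After 48 h it read 7.01, 7.57 and 7.30 on the control arrays and 8.50, 8.34 and 8.79 on the Nnm arrays, a 2.38-fold rise (adjusted p = 0.0120). Nnm replicate 2 kept most of the difference at both times, and all 3 probe sets were higher. The CMP-sialic acid carrier SLC35A1 rose 1.77-fold (adjusted p = 0.0184) and SLC35A5 1.47-fold (adjusted p = 0.0304, 0.0642 with the block within that time) at 24 h. SLC35A4 fell by 1.04 (adjusted p = 0.0265, 0.0600 with the block within that time), SLC35B4, a carrier of UDP-xylose and UDP-N-acetylglucosamine, by 0.88 (adjusted p = 0.0121) and SLC35F6 by 0.85 (adjusted p = 0.0142). At 48 h these 5 were not called; SLC35A1 kept a difference of 0.59 and SLC35B4 one of -0.47, while SLC35F6 read 9.39, 9.21 and 9.39 on the control arrays and 9.22, 8.85 and 9.33 on the Nnm arrays, with overlapping groups. With the block 2 rose and 4 fell at 48 h.

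Vitamin and cofactor carriers numbered 9, of which 3 rose and 1 fell at 24 h and 1 rose at 48 h (2 with the replicate block). The folate carriers moved apart. SLC19A1, the reduced folate carrier, read 7.29, 7.37 and 7.66 on the control arrays and 4.93, 6.58 and 5.54 on the Nnm arrays at 24 h and fell by 1.76 (SE 0.37, adjusted p = 0.0198), to 0.295 times the control level. The arrays did not overlap, and replicate 2 fell less than the others; at 48 h the difference was -0.77 and not called. SLC46A1, the proton-coupled folate transporter, rose 1.72-fold at 24 h (adjusted p = 0.0402, 0.0513 with the block within that time), with readings of 6.27, 6.17 and 5.65 on the control arrays and 6.86, 6.82 and 6.76 on the Nnm arrays, although its other probe set had the opposite sign. Its control level was 1.03 higher at 48 h than at 24 h (adjusted p = 0.258, not called). The thiamine transporter SLC19A2 rose 2.00-fold at 24 h (adjusted p = 0.0287), with readings of 8.34, 8.13 and 7.86 on the control arrays and 9.31, 8.62 and 9.40 on the Nnm arrays. At 48 h it read 8.92, 9.02 and 8.64 on the control arrays and 8.35, 8.70 and 7.98 on the Nnm arrays, 0.52 lower with Nnm and not called. The ascorbate transporter SLC23A2 rose 1.89-fold at 24 h (adjusted p = 0.0326) and was 0.78 higher at 48 h, where it was called only with the block (adjusted p = 0.0159). SLC49A4 rose 1.96-fold at 48 h (adjusted p = 0.0215), in both of its probe sets.

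Among 18 carriers of sodium, potassium, protons, calcium, chloride and bicarbonate, 1 rose and 1 fell at 24 h, and 2 rose and 1 fell at 48 h; with the replicate block 5 rose and 2 fell at 24 h, and 3 rose and 3 fell at 48 h. SLC12A2, the sodium-potassium-chloride cotransporter NKCC1 that sets cell volume and chloride, read 8.30, 7.92 and 7.95 on the control arrays and 9.11, 8.67 and 8.81 on the Nnm arrays at 24 h and rose 1.75-fold (adjusted p = 0.0269). It rose again at 48 h, 1.73-fold (adjusted p = 0.0318), with every Nnm array above every control array at both times. SLC4A7, an electroneutral sodium-bicarbonate cotransporter, fell by 0.69 (adjusted p = 0.0488, 0.0569 with the block within that time) and by 0.78 (adjusted p = 0.0412), with readings of 8.45, 8.46 and 8.50 on the control arrays and 7.73, 8.03 and 7.30 on the Nnm arrays at 48 h. SLC9D1 rose 1.43-fold at 48 h (adjusted p = 0.0424). SLC26A2, an anion exchanger that takes up sulfate, was not called. It read 10.57, 10.65 and 10.74 on the control arrays and 8.88, 10.20 and 9.27 on the Nnm arrays at 24 h, 1.20 lower with arrays that did not overlap (adjusted p = 0.0548), and 9.42, 9.67 and 9.65 on the control arrays and 10.29, 8.99 and 10.24 on the Nnm arrays at 48 h, where replicates 1 and 3 were above and replicate 2 below the controls.

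Of 13 sugar carriers, 0 rose and 1 fell at 24 h, and limma called 0 at 48 h, where 4 had an unadjusted p under 0.05. With the replicate block 3 fell at 24 h and 1 at 48 h. SLC2A6, a facilitative hexose transporter of intracellular membranes, read 7.69, 7.08 and 7.66 on the control arrays and 6.21, 6.32 and 6.21 on the Nnm arrays at 24 h and fell by 1.23 (SE 0.23, adjusted p = 0.0143), with all 3 Nnm arrays close together. SLC2A6 at 48 h was 0.51 lower with overlapping arrays. The glucose transporters SLC2A1 and SLC2A3 were not called: SLC2A1 read 7.13, 7.06 and 7.41 on the control arrays and 8.62, 6.47 and 8.69 on the Nnm arrays at 24 h (adjusted p = 0.362) and SLC2A3 9.37, 8.99 and 9.74 on the control arrays and 11.10, 8.64 and 10.72 on the Nnm arrays at 48 h (adjusted p = 0.422). For both, replicates 1 and 3 were above and replicate 2 below the control arrays. SLC2A10 had the smallest p of the class at 48 h, 0.95 higher with arrays that did not overlap (adjusted p = 0.0682). Without both Nnm arrays numbered 2, 3 sugar carriers rose and 3 fell at 24 h, and 3 rose and 2 fell at 48 h.

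The smaller classes held few calls. Of 6 carriers of osmolytes, amines and neurotransmitters, SLC2A13, the proton-coupled myo-inositol transporter, was called by limma at 24 h, and 0 were at 48 h (1 at an unadjusted p under 0.05; 2 lower with the replicate block). It read 7.23, 7.16 and 6.61 on the control arrays and 8.74, 7.66 and 8.69 on the Nnm arrays at 24 h, a 2.57-fold rise (SE 0.28, adjusted p = 0.0185), and at 48 h it was 0.48 higher, not called. The sodium-coupled myo-inositol transporter SLC5A3 was 0.82 and 0.68 higher and not called, and the taurine transporter SLC6A6 was 0.35 and 0.74 lower, not called, with 2 of its 4 probe sets of each sign. Of 3 nucleoside and nucleobase carriers, SLC43A3, which takes up purine nucleobases, fell by 0.97 at 24 h (adjusted p = 0.0249), with readings of 9.997, 9.67 and 10.14 on the control arrays and 8.74, 9.18 and 8.98 on the Nnm arrays, and differed by -0.07 at 48 h, when limma called 0 of the 3 (1 at an unadjusted p under 0.05). The nucleoside transporter SLC29A1 stood 1.27 higher at 48 h with arrays that did not overlap (adjusted p = 0.0743, 0.0128 with the replicate block). Of 12 genes of other or unassigned substrates, SLC18B1, a vesicular polyamine carrier, fell by 1.07 at 24 h (adjusted p = 0.0360) and by 1.07 at 48 h (adjusted p = 0.0424). SLC68A1 fell by 1.15 at 24 h (adjusted p = 0.0253), and SLC60A1 and SLC71A1 were not called. Of 7 genes named after a carrier without being one, SLC7A6OS, which lies opposite SLC7A6 and codes for a protein outside the carrier families, rose 1.81-fold (adjusted p = 0.0208) and 2.14-fold (adjusted p = 0.0124).

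Of 10 carriers of organic acids, bile acids and drugs, 1 rose and 0 fell at each time. SLC17A5, sialin, which exports sialic acid from lysosomes, read 10.40, 10.33 and 9.75 on the control arrays and 11.43, 11.03 and 10.95 on the Nnm arrays at 24 h and rose 1.97-fold (adjusted p = 0.0226); at 48 h it differed by 0.17. The gene counted at 48 h was SLC22A23, which passed the filter on Nnm arrays only and is therefore described without a test. The readings at 48 h were 2.13, 2.39 and 2.38 on the control arrays and 5.89, 3.21 and 6.11 on the Nnm arrays. Its Nnm mean was at least 2.10-fold above log2 4 taken in place of the control mean. SLC51B, the beta subunit of the basolateral organic solute exporter, passed the filter in the same way. It read 3.55, 3.81 and 3.30 on the control arrays and 6.81, 3.83 and 6.39 on the Nnm arrays at 24 h and 3.87, 3.65 and 3.52 on the control arrays and 7.22, 4.50 and 7.67 on the Nnm arrays at 48 h. Replicates 1 and 3 were high at both times, while replicate 2 was level with the controls at 24 h. With log2 4 in place of the control mean, its Nnm mean was at least 3.20-fold and 5.52-fold higher.

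Several of the largest differences were not called. In these genes Nnm replicates 1 and 3 read far from the control arrays. Nnm replicate 2 read like the control arrays, or close to them, except in SLC17A1, where it read above them. These genes were chosen with their values in view. SLC17A1, an apical carrier of urate and phosphate in proximal tubule, read 5.85, 6.40 and 6.32 on the control arrays and 2.03, 7.33 and 2.37 on the Nnm arrays at 24 h and 6.20, 6.39 and 7.21 on the control arrays and 1.77, 7.43 and 2.30 on the Nnm arrays at 48 h. Replicates 1 and 3 were under the filter level and replicate 2 above every control array, at both times, and the adjusted p was 0.319 and 0.257. Its neighbour in family SLC17A3 read 7.96, 8.58 and 8.26 on the control arrays and 5.42, 8.34 and 5.51 on the Nnm arrays at 48 h (adjusted p = 0.225). SLC37A4, the glucose-6-phosphate translocase of the endoplasmic reticulum, read 8.80, 8.15 and 8.05 on the control arrays and 5.76, 7.55 and 5.50 on the Nnm arrays at 24 h and 8.33, 8.50 and 8.47 on the control arrays and 5.17, 8.03 and 5.41 on the Nnm arrays at 48 h. Here all 3 Nnm arrays were below all controls, and the adjusted p was 0.0738 and 0.0713 (0.0365 and 0.0339 with the replicate block, 0.0759 and 0.0747 with the block within each time).

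SLC4A4, the basolateral sodium-bicarbonate cotransporter NBCe1 of proximal tubule, read 12.40, 12.77 and 11.89 on the control arrays and 9.66, 12.06 and 9.87 on the Nnm arrays at 48 h. Replicates 1 and 3 were below all controls and replicate 2 within their range; the adjusted p was 0.0888, and 0.0159 with the replicate block. All 5 of its probe sets were lower at both times. SLC6A13, a transporter of GABA, read 10.49, 10.58 and 9.67 on the control arrays and 6.30, 9.71 and 6.74 on the Nnm arrays at 48 h. Its adjusted p was 0.0719 (0.0167 with the replicate block, 0.0510 with the block within that time). SLC29A3, a lysosomal nucleoside transporter, and SLC25A33, a pyrimidine nucleotide carrier, stood 1.52 and 1.24 higher at 24 h, with replicate 2 among the controls (adjusted p = 0.115 and 0.0868, 0.0488 and 0.0446 with the block, 0.0842 and 0.0882 with the block within that time). SLC9A2, a sodium-proton exchanger, and SLC35E4 passed the filter on Nnm arrays only and are described without a test. SLC9A2 read 5.17, 2.30 and 5.23 with Nnm at 24 h against a control mean of 2.29, which is under the filter level. SLC35E4 showed the same layout, with 6.05, 3.12 and 5.74 on the Nnm arrays against a control mean of 3.56.

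**Figure D4:**
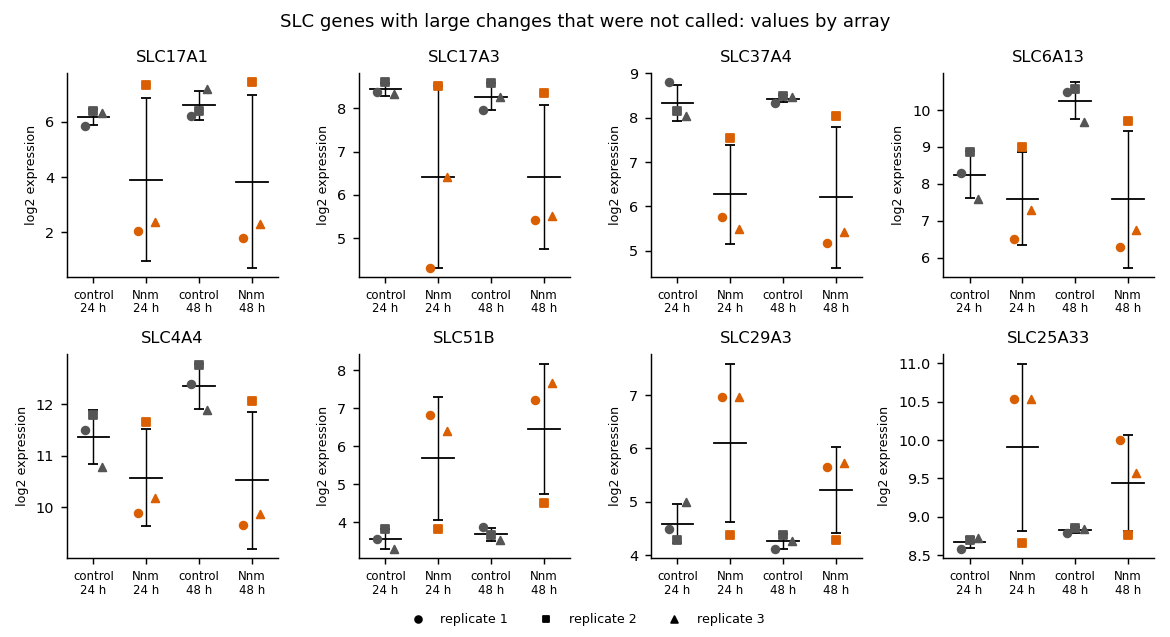
Log2 expression on each array for 8 SLC genes whose changes were large and not called, chosen after their values were seen, by group (3 arrays each, marker shape for the replicate number); the bar is the mean and the whiskers 1 SD. In the panels other than SLC17A1, the square, Nnm replicate 2, lies at or near the control arrays while the circle and triangle lie away from them. In SLC17A1 the square lies above every control array of its time, and the circle and triangle lie far below.

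Of the 26 transporters listed by name for the proximal tubule and its neighbours, for platinum drugs and for iron and copper, 13 were among the 195. The other 13 stayed under the filter: the sodium-glucose cotransporters SLC5A1 and SLC5A2, the organic cation and anion transporters SLC22A2, SLC22A6 and SLC22A8, the extruder SLC47A1, the phosphate cotransporter SLC34A1, the sodium-proton exchanger SLC9A3, SLC12A1, SLC12A3, SLC7A9, SLC6A19 and SLC1A1. Of the 13 measured, SLC40A1 was the one called by limma at either time. SLC20A1, a sodium-phosphate cotransporter, differed by 0.06 and 0.51. SLC3A1, the heavy chain of the cystine transporter, read 9.85, 9.52 and 8.91 on the control arrays and 8.05, 10.37 and 8.04 on the Nnm arrays at 48 h, with replicate 2 the highest of the 6 arrays and replicates 1 and 3 the lowest (adjusted p = 0.602). The class of phosphate and sulfate does not hold SLC26A2, which takes up sulfate and is counted with the ion carriers above. Of its 5 genes (SLC17A1, SLC17A3, SLC20A1, SLC20A2 and SLC34A2), limma called 0 at either time, and 0 had an unadjusted p under 0.05. Their median changes were -1.26 and -0.41. With the block 0 were called, and without both Nnm arrays numbered 2, 0 rose and 2 fell at 24 h and 1 rose and 2 fell at 48 h.

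The change at 48 h was set against that at 24 h. A total of 153 of the 195 SLC genes had the same sign at both times (78.5%, against 78.3% of all genes). The test of the difference between the Nnm effects called 0 of 195 SLC genes and 0.0% of all genes by limma; at an unadjusted p under 0.05 it held 12 SLC genes (6.15%, against 6.6%), and the smallest adjusted p was 0.780. SLC19A2 and SLC25A4 had the smallest p. The effect on SLC19A2 was 1.52 lower at 48 h than at 24 h (SE 0.35), from 1.00 to -0.52, and that on SLC25A4 was 0.68 lower (SE 0.16). A call at 1 time and not at the other, as for SLC38A11 or SLC7A7, is therefore not shown to be a difference between the times. Without both Nnm arrays numbered 2, the difference was called for 25 SLC genes (14 higher and 11 lower at 48 h), against 12.5% of all genes. SLC26A2 had the smallest adjusted p there (0.00202), with a change of -1.58 at 24 h and 0.68 at 48 h. In control cells, 48 h against 24 h, limma called 0 of 195 SLC genes and 0.0% of all genes, with 15 SLC genes at an unadjusted p under 0.05 (7.69%, against 8.85%).

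**Figure D5:**
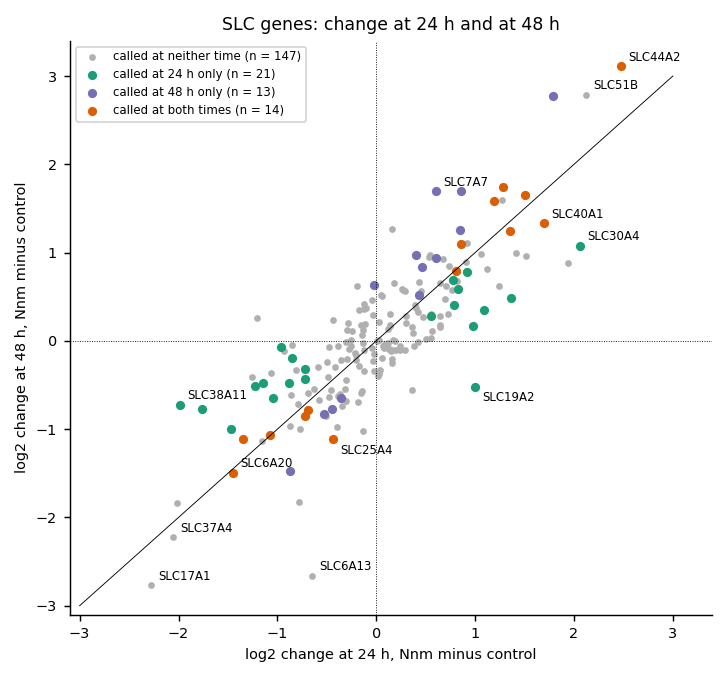
Log2 change with Nnm at 48 h (vertical axis) against that at 24 h (horizontal axis) for the 195 SLC genes, 1 point per gene, coloured by whether a gene was called at both times (14), at 24 h only (21), at 48 h only (13) or at neither; the line marks equal change. Most points lie near the line, and SLC19A2 and SLC6A13 are among those away from it.

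Other transport genes, from lists written from textbook knowledge, gave a similarly mixed picture. Of 16 ABC transporters measured, ABCC5 rose by 0.76 at 24 h (adjusted p = 0.0335, 0.0646 with the block within that time). ABCB10 fell by 0.80 at 24 h (adjusted p = 0.0278). At 48 h, limma called 0 of the 16 (5 at an unadjusted p under 0.05). With the block 1 rose and 2 fell at each time. Of 5 organic anion transporters of the SLCO family, which lie outside the symbol rule, SLCO5A1 fell by 1.27 at 48 h (adjusted p = 0.0134). None of 9 ion pumps that make the gradients on which many carriers draw was called by limma at either time, with or without the block, and 2 had an unadjusted p under 0.05 at each time. Of 15 subunits of the proton pump, ATP6V1D fell by 0.49 at 24 h (adjusted p = 0.0390, 0.0660 with the block within that time). It also fell by 0.57 at 48 h (adjusted p = 0.0310, 0.0560 with the block within that time). Of 13 regulators of ion transport, the kinases WNK1 and WNK3, which act on SLC12 cotransporters, rose at 24 h. WNK1 rose by 0.58 (adjusted p = 0.0345, 0.0600 with the block within that time). WNK3 rose by 1.08 (adjusted p = 0.0371, 0.0580 with the block within that time). The carbonic anhydrase CA12 rose by 3.07 at 48 h (adjusted p = 0.0188).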

How the data were processed

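RNA of HK-2 cells was measured on 12 Affymetrix arrays, 4 groups of 3. The deposited table holds log2 expression values per probe set, made by the authors with GCRMA per the submitters' processing notes, which give no version. GCRMA forces arrays to similar distributions (array medians were 2.91 to 2.98), so a shift common to most genes cannot be seen. The sources used here do not give the set of arrays that the authors normalized together. Neither scanner files nor detection calls were used, and the number of arrays limits the precision.

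The table lists 54675 probe sets. The platform annotation names 1 gene for 41097, several for 1801 and none for 11777, which include the 62 control probe sets left out. Tests covered each probe set above log2 4 on at least 3 of 12 arrays (22829 in all). Symbols were checked by gene identifier against RefSeq (GRCh38.p14), where 195 of 195 matched and 0 changed. The table was fitted in limma 3.58.1 under R 4.3.3 (lmFit, contrasts.fit, eBayes) with 4 group means, and p-values were adjusted over all tested probe sets by Benjamini-Hochberg. Where 1 group's mean lay under log2 4, a fold is given as at least the brighter mean over that level. The scripts were tested on simulated data.

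Substrate classes and other gene lists were written from textbook knowledge, and a class of 7 genes that are not carriers was set after the names of the measured genes were seen. Genes were named by rule: per class and time, up to 4 called genes with the largest change, or the gene with the smallest p where none was called, the 10 genes with the highest control mean, the genes next to the filter, and 26 transporters listed by name. Exceptions are said in place. The genes and lists were chosen with earlier results of these data known.

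Deviations from group means correlated between same-numbered arrays of different groups in 18 of 18 pairs above 0.1 (0.162 to 0.669). The median over 36 differently numbered pairs was -0.208. Deviations within a group sum to 0, so a negative value there follows from the positive ones and is no separate evidence. On the same-number correlations, which come from the data and not the labels, the numbers were taken to pair the samples. Fits that block on the number, across all arrays and inside each time, stand beside the main ones. They are given where a named and tested call was lost, and for some of the counts that moved. Other alternatives were other filters, normalizations, variance settings, a mean over probe sets, and leaving out arrays.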

Additional observations from a re-analysis of the deposited data

How the results depend on the processing

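For the 65 named SLC genes, 2440 of 2986 values under the alternatives kept their direction and side of the threshold, 376 lost the call, 146 gained it and 24 changed sign, the last in 9 small differences of 8 genes that were not called either way. With a mean over probe sets SLC43A3 at 48 h came to 0.017, SLC38A1 at 24 h to -0.0030 and SLC20A1 at 24 h to -0.17. With array weights SLC43A3 at 48 h came to 0.27 and SLC39A6 at 24 h to 0.12, and with quantile normalization SLC25A5 at 24 h to 0.021 and SLC39A6 at 24 h to 0.0081. Without both Nnm arrays numbered 2 the differences were 0.14 (SLC43A3 at 48 h), 0.14 (SLC38A1 at 48 h) and 0.16 (SLC39A6 at 24 h). Leaving out 1 array at a time gave -0.28 to 0.14 (SLC43A3), -0.25 to 0.14 (SLC38A1) and -0.027 to 0.23 (SLC39A14) at 48 h, and -0.16 to 0.36 (SLC29A1), -0.015 to 0.28 (SLC38A1), -0.17 to 0.16 (SLC39A6), -0.052 to 0.19 (SLC20A1) and -0.16 to 0.28 (SLC31A2) at 24 h. Without a filter (54613 probe sets in the fit in place of 22829), 11 SLC genes were called at 24 h and 8 at 48 h. With the arrays of 1 time alone, and so fewer samples, 2 and 1 were called. The replicate block over all arrays gave 62 and 53. Array weights gave 113 and 106, and also 42 for the difference between the times and 3 for control cells at 48 h against 24 h. Without both Nnm arrays numbered 2 the counts were 103 and 96, and 25 for the difference. Leaving out 1 array at a time gave 0 to 86 calls at 24 h, 3 to 70 at 48 h, 0 to 6 for the difference and 0 for control cells. A filter at log2 6 (38 and 28), quantile normalization (35 and 28), centring on the median (37 and 28), a robust trend (38 and 31), the mean of a gene's probe sets (41 and 31) and the block within each time (27 and 31) stayed within 1.5 times the main counts of 35 and 27. The share of all genes called, given above for the 2 blocks and for the fit without both Nnm arrays numbered 2, was not taken under the other alternatives. Whether their counts of SLC genes depart from all genes is therefore not known. The causes of these shifts were not tested. The number of arrays, 3 a group, limits the precision.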

Other observations

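The 10 SLC genes named for a high control reading, which gives no order of abundance between probe sets, were SLC25A5, SLC25A3, SLC35F5, SLC38A1, SLC4A4, SLC39A6, SLC20A1, SLC71A1, SLC39A10 and SLC5A3, and 0 of them were called at either time by limma. SLC35F5 read 13.07, 13.21 and 13.26 on the control arrays and 12.27, 12.89 and 12.47 on the Nnm arrays at 48 h, with all Nnm arrays below all control arrays, a difference of -0.64 (adjusted p = 0.0847, 0.0401 with the replicate block over all arrays, 0.0839 with the block within that time).

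Of the 35 SLC genes called at 24 h, 19 had further tested probe sets; in 10 of these another probe set was called the same way, and in 3 (SLC25A51, SLC25A36 and SLC46A1) another had the opposite sign. At 48 h, 14 of 27 had further probe sets, 7 with another called the same way and 2 (SLC25A51 and SLC25A46) with another of opposite sign.

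The water channel AQP11 was above log2 4 on 4 arrays, all with Nnm, and is described without a test. It read 2.75, 2.61 and 2.61 on the control arrays and 6.74, 3.31 and 6.40 on the Nnm arrays at 24 h.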
